A study of Homo sapiens with 24 samples.

Results

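A set of 10 genes, out of the 58174 genes listed for each cell line, had large falls in RNA level in all 4 human cancer cell lines studied when IGF2BP1 was depleted. They are CCDC6, HDLBP, CBX6, BZW2, BRI3BP, GPD2, SLC37A4, SLC39A14, RABEP1 and TRUB1. The genes were chosen by their log2 fold changes, for a large fall with the siRNA pool against IGF2BP1 (siI1) relative to the control siRNA (siC) in every line, so the falls themselves are given as a description and without a test. All 10 passed the filter on low values in each line. IGF2BP1 is an oncofetal RNA-binding protein with KH and RRM domains. It binds mRNAs, mostly in the 3′UTR, and is known for slowing the decay of its target mRNAs and for shielding some of them from miRNAs such as the let-7 family.

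Total RNA depleted of ribosomal RNA was sequenced from A549 (lung adenocarcinoma), ES2 (ovarian clear cell adenocarcinoma), MV3 (amelanotic melanoma) and PANC1 (pancreatic ductal adenocarcinoma) cells. Each line gave 3 siC and 3 siI1 libraries, 24 libraries in 8 groups. Cells were harvested 72 h upon transfection, or 96 h in PANC1, so that line and harvest time cannot be told apart there. The same siRNA pool served in all lines, so effects of the pool and of the loss of IGF2BP1 cannot be told apart in these libraries. Values are FPKM, reads per kilobase of gene length and scaled to the depth of the library, which allow levels to be compared between genes. The reads behind them ranged from 3105215 to 4553326 per library in A549, 6532175 to 8472851 in PANC1, 6421764 to 8419467 in ES2 and 15572492 to 20082702 in MV3, so a given FPKM rests on fewest reads in A549.

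IGF2BP1, the targeted mRNA, was left at 39.4% of its siC level in A549, 24.9% in PANC1, 31.7% in ES2 and 31.4% in MV3, with every siI1 library below every siC library. Its log2 fold change was -1.32 ± 0.05 (SE, 3 libraries per group), -1.83 ± 0.06, -1.55 ± 0.07 and -1.52 ± 0.05 in the same order. Some defining markers of the tissues of origin were at or near 0 in the siC libraries. The melanocytic genes MLANA, PMEL, TYR and SOX10 did not exceed 0.0207 FPKM in MV3, the lung genes NKX2-1 and SFTPB were listed at 0 in A549, and PAX8 stayed at or below 0.262 FPKM in ES2. In PANC1, the pancreatic genes GATA6 and PDX1 did not exceed 0.149 and 1.83 FPKM, and the epithelial keratins KRT8 and KRT19 were at least at 638 and 547 FPKM. KRT8 was also high in A549, at 485 FPKM or more. The summed FPKM was larger in the siI1 libraries of PANC1 (977500 to 1192000) than in its siC libraries (526300 to 756400), whereas the ranges of the 2 groups overlapped in the other lines.

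On the deposited scaling, the 10 genes fell most in A549 and least in ES2 and MV3. Their median log2 fold change, siI1 against siC on the log2(FPKM + 0.5) scale, was -1.61 in A549 (SD of the 3 siI1 libraries 0.06), -1.46 in PANC1 (SD 0.04), -1.30 in ES2 (SD 0.06) and -1.22 in MV3 (SD 0.03). The median of all genes tested was -0.01, -0.04, -0.02 and 0.01. All 40 pairs of gene and line had every siI1 library below every siC library, as the choice of genes largely fixes. Such a pattern was seen in 18.5% of all genes tested in A549, 23.8% in PANC1, 22.6% in ES2 and 25.9% in MV3. The fall was largest in A549 for 7 genes and in PANC1 for SLC39A14, RABEP1 and TRUB1, and it was smallest in ES2 for 5 genes and in MV3 for 5. In bulk RNA, a fall in all cells and a larger fall in some cells cannot be told apart. Which line fell most rests on the deposited scaling. With the libraries of a line set to equal sums, the median was -2.16 in PANC1 and -1.64 in A549, and the fall was largest in PANC1 for 9 genes and in A549 for 1.

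**Figure D1:**
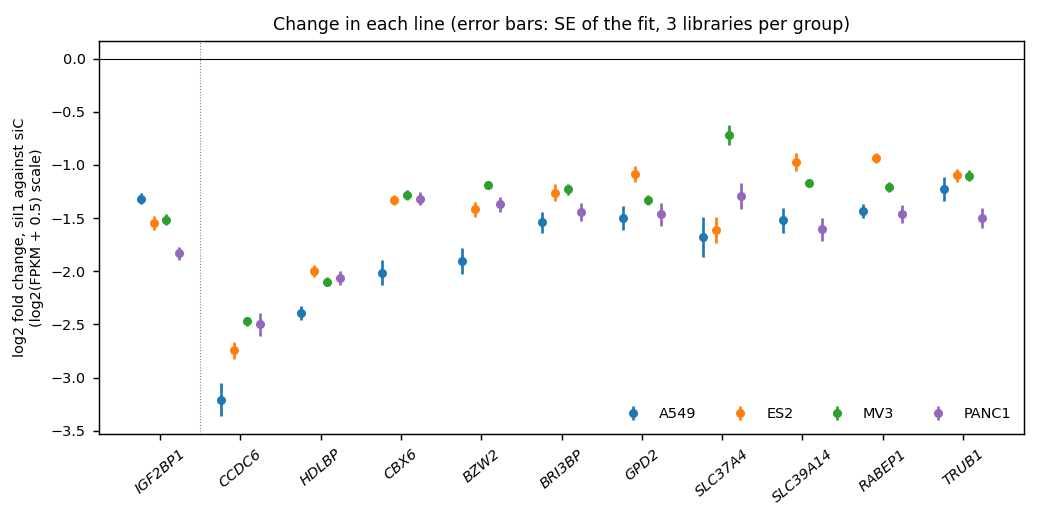
Log2 fold change (siI1 against siC, log2(FPKM + 0.5) scale) of IGF2BP1 and of the 10 genes in 4 lines, with the SE of the fit over 3 libraries per group. CCDC6 and HDLBP lie below IGF2BP1 in each line, and SLC37A4 in MV3, at -0.71, is the smallest fall.

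The number of the 10 genes that fell further than IGF2BP1 was 9 in A549, 2 in PANC1, 3 in ES2 and 2 in MV3. CCDC6 and HDLBP did so in all 4 lines and TRUB1 in none. These orders were not tested, and some rest on differences smaller than the SE. Examples are TRUB1 in A549 (-1.23 ± 0.11, IGF2BP1 -1.32 ± 0.05) and SLC37A4 in ES2 (-1.61 ± 0.12, IGF2BP1 -1.55 ± 0.07). Among the 9650 protein-coding genes tested in all lines, the 10 genes held ranks 1, 2 and 4 to 11 by mean log2 fold change, with IGF2BP1 at rank 3. The median percentile of their siC level among protein-coding genes was 83.5 in A549, 77.7 in PANC1, 81.5 in ES2 and 78.0 in MV3. The choice of genes partly fixes such high levels. The siC values enter the fold changes used for it, and the scale understates the change of low genes. SLC37A4, at percentiles of 19.7 to 53.1, and TRUB1 in MV3, at 47.1, were the lower ones.

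**Figure D2:**
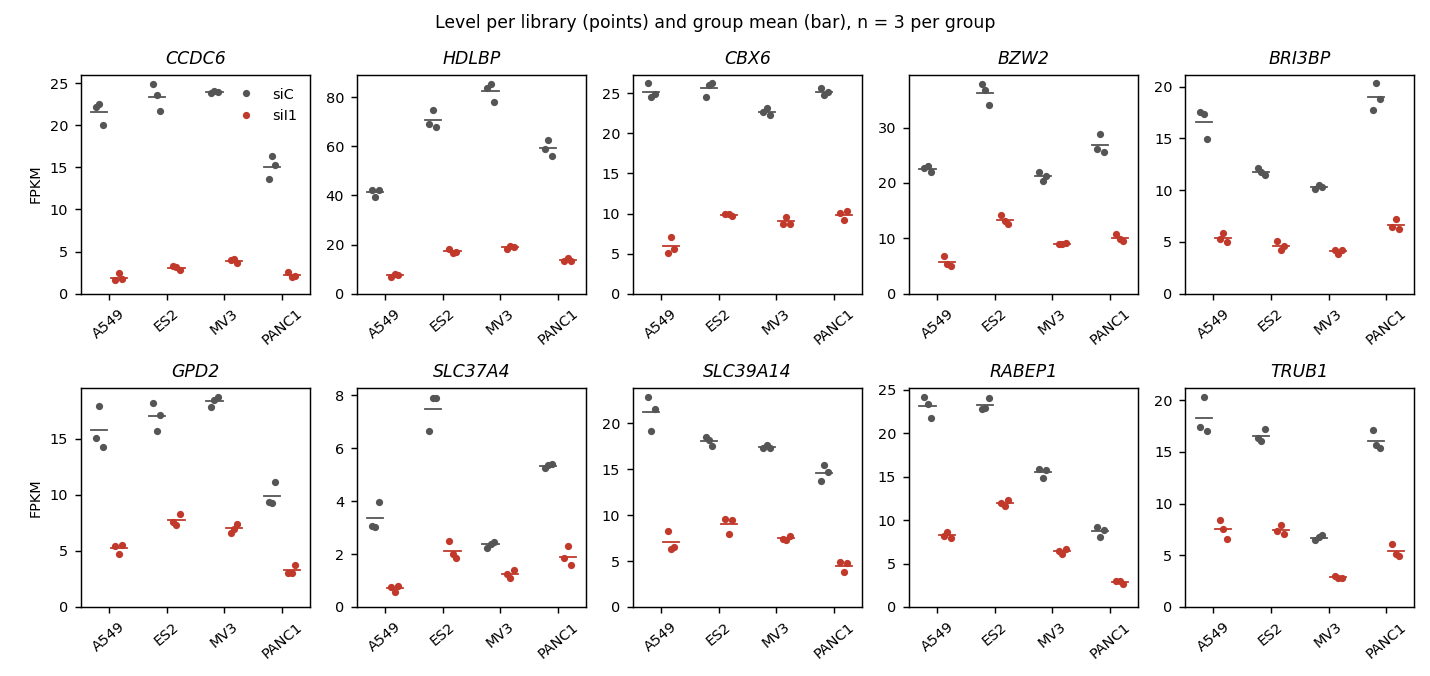
FPKM of each of the 10 genes in every library (points) with the mean of 3 libraries (bar), siC in grey and siI1 in red. In each panel and line the 3 siI1 points lie below the 3 siC points, and the y axes start at 0 and differ between panels.

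Since IGF2BP1 acts mostly in the 3′UTR, the annotated 3′UTRs were examined, taking the longest of each gene in GENCODE release 44 (hg38). Their median length was 3078 nt in the 10 genes and 1535 nt in 9587 protein-coding genes, and 8 of the 10 were longer than the latter. BRI3BP had the longest with 5801 nt, followed by CBX6 with 4787 nt and CCDC6 with 4170 nt, whereas BZW2 (1073 nt) and SLC37A4 (559 nt) were the short ones. Base composition and short words were near the medians of all genes. The content of A and U was 57.4% against 57.9%, the density of CAU followed by A, C or U was 1.09 against 1.17 per 100 nt, and that of AUUUA was 0.184 against 0.177 per 100 nt. TRUB1 stood at the upper end with 70.5% A and U and 0.784 AUUUA words per 100 nt, and HDLBP and BZW2 held no AUUUA.

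Matches to the let-7 seed in HDLBP and BZW2 are shown because shielding from let-7 is a known role of IGF2BP1. The first line is the mature human miRNA from RefSeq with its seed (bases 2 to 8) in capitals, and the others are 30-base stretches of 3′UTR in hg38, read 5′ to 3′ on the strand of the gene, with the 7 bases that pair with the seed in capitals.
let-7a-5p: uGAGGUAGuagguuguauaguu
HDLBP, chr2:241228934-241228963, minus strand: gggtccctgcccCTACCTCcactgccagac
HDLBP, chr2:241228677-241228706, minus strand: gttgccttctttCTACCTCagccggcgtgg
BZW2, chr7:16706283-16706312, plus strand: atacttgggactCTACCTCtcactcactat
A let-7 word was found in 3 of the 10 genes, HDLBP with 2 and BZW2 and BRI3BP with 1 each. Among genes with a 3′UTR within 20% of the same length, the share with such a word averaged 15.6% over the 10. For the 11 other seeds searched, the number of the 10 genes with a match lay between 2 and 5. The highest was 5 for miR-17-5p, against a same-length share of 39.0%, and 4 for miR-16-5p, against 36.1%. A match is a description of the sequence, and no binding was measured here. CCDC6, with the largest fall, held no let-7 word, 2 of miR-16-5p and 1 of miR-17-5p.

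Relatives and partners of each gene were tested with limma in each line to see whether they moved with it. The lists were chosen with earlier results of these data known. Shares of a list set beside a background are therefore descriptions, and no list was tested against its background. The 10 lists hold 147 genes, of which 133 in A549, 132 in PANC1, 134 in ES2 and 133 in MV3 passed the filter. In A549, 9.77% of them were lower and 6.77% higher, against a background of 7.83% and 5.93% of all genes. In ES2, 21.6% were lower and 8.21% higher, against 13% and 10.5%. In MV3, 33.1% were lower and 12.8% higher, against 19.5% and 16.3%. In PANC1, 21.2% were lower and 11.4% higher, against 13.4% and 11.3%. These backgrounds count every gene that passed the filter, also non-coding ones, with 10960 protein-coding genes among 16380 in MV3. The shares thus compare unlike sets of genes, and a background of protein-coding genes alone was not computed. The median over all lists was -0.02 in A549, -0.06 in PANC1, -0.10 in ES2 and -0.08 in MV3. The change differed between lines in 73 of 127 partners tested in all lines (57.5%), against 45% of 12816 genes (F test of limma over the 4 lines, adjusted p under 0.05). Of these 12816 genes, 9650 were protein-coding, so here too the sets are unlike. Of the 147, 14 were lower in at least 3 lines, 1 was higher in at least 3, 4 were lower in all 4, and 12 were called in opposite directions in different lines. If the libraries of PANC1 were instead scaled to the same sum, its median over all genes became -0.68, no partner was higher and 98 were lower, so each rise in PANC1 given here rests on the deposited scaling. For the 10 genes, the PANC1 median minus that of all genes was -1.43 as deposited and -1.48 with equal sums.

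**Figure D3:**
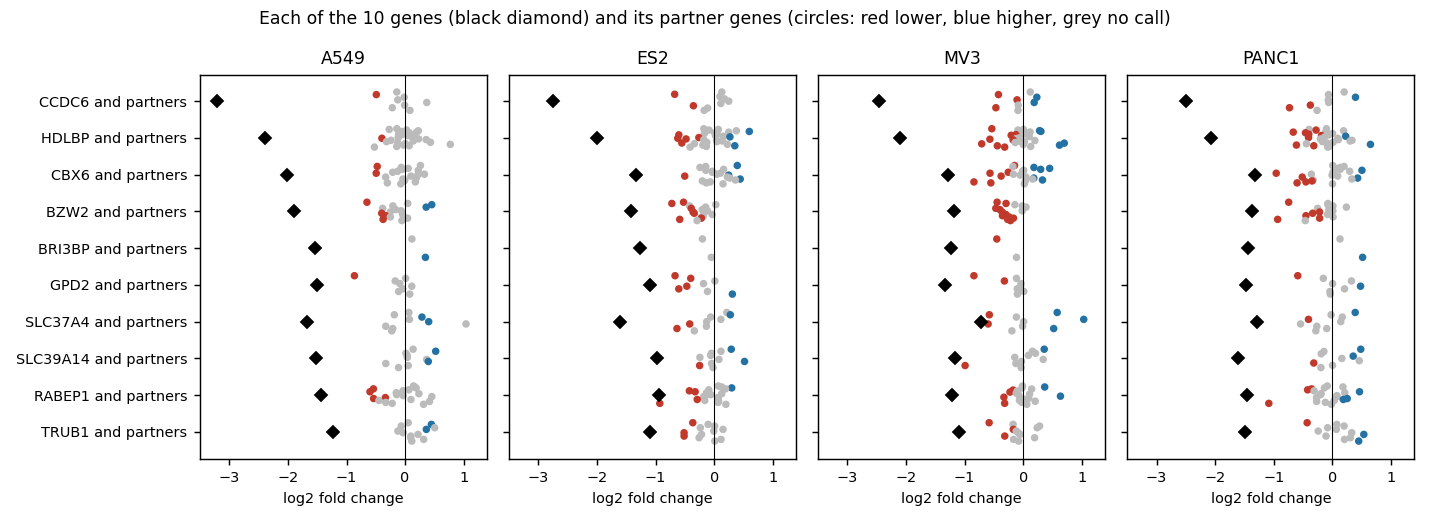
Log2 fold change of each of the 10 genes (black diamonds) and of its relatives and partners (circles) in the 4 lines, red where lower, blue where higher and grey where not called (limma, adjusted p under 0.05). Partner values spread to both sides of 0, with RIN1 in PANC1 (-1.08) and H6PD in MV3 (1.03) among the farthest, and in the BZW2 list 12 of 16 partners are lower in MV3.

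CCDC6 (ENSG00000108091, chr10:59788747-59906556, minus strand) encodes a coiled-coil protein known as a fusion partner of RET in thyroid carcinoma and as an inhibitor of protein phosphatase 4 in the DNA damage response. The libraries of A549 held 22.1, 22.5 and 20.03 FPKM with siC and 1.57, 2.48 and 1.69 FPKM with siI1. The libraries of ES2 held 24.9, 23.5 and 21.6 FPKM with siC and 3.24, 3.17 and 2.77 FPKM with siI1. The groups did not overlap, and the siI1 levels lay far below. The libraries of MV3 held 23.8, 24.1 and 23.99 FPKM with siC and 3.98, 4.08 and 3.70 FPKM with siI1. The libraries of PANC1 held 13.7, 16.3 and 15.3 FPKM with siC and 2.63, 2.04 and 2.12 FPKM with siI1. Of the siC level, 8.88% in A549, 15.0% in PANC1, 13.1% in ES2 and 16.4% in MV3 remained. CCDC6 had the largest mean fall of the protein-coding genes tested in all lines, with log2 fold changes of -3.21 ± 0.15 in A549, -2.499 ± 0.11 in PANC1, -2.74 ± 0.08 in ES2 and -2.47 ± 0.04 in MV3 (SE, 3 libraries per group).

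The catalytic subunit of the phosphatase that CCDC6 binds was not lower in any line. Of the 9 genes of the list, the calls were 1 lower and 0 higher of 8 in A549, 2 lower and 1 higher of 8 in PANC1, 2 lower and 0 higher of 9 in ES2, and 3 lower and 2 higher of 8 in MV3. In that order, 12.5%, 25%, 22.2% and 37.5% were lower, against 7.83%, 13.4%, 13% and 19.5% of all genes. The shares higher were 0%, 12.5%, 0% and 25%, against 5.93%, 11.3%, 10.5% and 16.3%. PPP4C, the catalytic subunit, had log2 fold changes of -0.02 in A549, 0.39 in PANC1, 0.10 in ES2 and 0.23 in MV3 and was higher in MV3 (adjusted p = 0.0235) and PANC1 (adjusted p = 0.00834), where it turned to -0.35 with equal sums. PPP4R3B, a regulatory subunit, was lower in ES2 (-0.35), MV3 (-0.47) and PANC1 (-0.73). H2AFX, the histone variant that PP4 dephosphorylates, was lower in A549 (-0.49), ES2 (-0.67) and MV3 (-0.42), with -0.07 in PANC1. The ES2 call of PPP4R3B was lost with equal sums (adjusted p = 0.0622). The A549 call of H2AFX and the MV3 call of PPP4C were lost without single libraries (adjusted p up to 0.0873 and 0.0755).

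HDLBP (ENSG00000115677, chr2:241227264-241317061, minus strand) encodes vigilin, an RNA-binding protein built of many KH domains, the fold that IGF2BP1 also uses to bind RNA. It was the most abundant of the 10 genes. The level in A549 was 42.2, 39.4 and 42.2 FPKM in the siC libraries and 6.99, 7.89 and 7.55 FPKM in the siI1 libraries. The level in ES2 was 69.1, 74.8 and 67.7 FPKM in the siC libraries and 18.2, 16.8 and 16.97 FPKM in the siI1 libraries. The level in MV3 was 83.9, 85.3 and 78.1 FPKM in the siC libraries and 18.3, 19.2 and 18.98 FPKM in the siI1 libraries. No siI1 library came near a siC library in these lines. The level in PANC1 was 59.0, 62.7 and 56.2 FPKM in the siC libraries and 13.4, 14.4 and 13.5 FPKM in the siI1 libraries. The RNA left was 18.1% in A549, 23.3% in PANC1, 24.5% in ES2 and 22.9% in MV3, and the log2 fold changes were -2.39 ± 0.07 in A549, -2.06 ± 0.06 in PANC1, -2.00 ± 0.06 in ES2 and -2.10 ± 0.04 in MV3. They spanned 0.39 between lines.

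Of 33 other RNA-binding proteins with KH domains listed, the calls were 1 lower and 0 higher of 28 in A549, 8 lower and 2 higher of 28 in PANC1, 5 lower and 3 higher of 28 in ES2, and 10 lower and 4 higher of 29 in MV3. The medians of the list were -0.01, -0.11, -0.04 and -0.07 in the order of lines used above. In the same order of lines, 3.57%, 28.6%, 17.9% and 34.5% of the list were lower, against 7.83%, 13.4%, 13% and 19.5% of all genes. The shares higher were 0%, 7.14%, 10.7% and 13.8%, against 5.93%, 11.3%, 10.5% and 16.3%. The list was thus below the background of lower calls in A549 and above it in the other lines, which was not tested. KHSRP, which promotes the decay of AU-rich mRNAs, was lower in A549 (-0.40), ES2 (-0.48) and MV3 (-0.57), with -0.20 in PANC1 (adjusted p = 0.06). QKI, a regulator of splicing and mRNA stability, was higher in ES2 (0.35) and lower in PANC1 (-0.32). IGF2BP2 and IGF2BP3 are the paralogs of IGF2BP1. IGF2BP2 had values of 0.11 in A549, 0.23 in PANC1, 0.16 in ES2 and 0.10 in MV3, with a call in PANC1 (adjusted p = 0.0302) that turned to -0.51 with equal sums. IGF2BP3 was higher in ES2 (0.27) and lower in MV3 (-0.14). The calls of QKI, IGF2BP2 and IGF2BP3 were lost without single libraries, with adjusted p up to 0.0899, 0.104 and 0.13.

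BZW2 (ENSG00000136261, chr7:16646131-16706523, plus strand) and its relative BZW1 encode the eIF5 mimic proteins, which bind initiation factor eIF2 in competition with eIF5 and tune start codon choice in translation. A549 libraries with siC gave 22.6, 23.1 and 21.9 FPKM, and those with siI1 gave 6.87, 5.34 and 4.93 FPKM. ES2 libraries with siC gave 37.9, 36.8 and 34.1 FPKM, and those with siI1 gave 14.2, 13.1 and 12.5 FPKM. The siI1 libraries lay below the siC libraries throughout. MV3 libraries with siC gave 21.9, 20.4 and 21.3 FPKM, and those with siI1 gave 8.95, 8.92 and 9.16 FPKM. PANC1 libraries with siC gave 26.1, 28.8 and 25.7 FPKM, and those with siI1 gave 10.7, 9.94 and 9.59 FPKM. What remained was 25.3% in A549, 37.6% in PANC1, 36.5% in ES2 and 42.5% in MV3, with log2 fold changes of -1.90 ± 0.12 in A549, -1.37 ± 0.07 in PANC1, -1.42 ± 0.07 in ES2 and -1.19 ± 0.04 in MV3.

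Here some of the partners were lower too. Of 16 genes, the calls were 4 lower and 2 higher of 16 in A549, 6 lower and 0 higher of 16 in PANC1, 7 lower and 0 higher of 16 in ES2, and 12 lower and 0 higher of 16 in MV3, and the list medians were -0.19, -0.15, -0.26 and -0.28. In that order, 25%, 37.5%, 43.8% and 75% were lower, against 7.83%, 13.4%, 13% and 19.5% of all genes. The shares higher were 12.5%, 0%, 0% and 0%, against 5.93%, 11.3%, 10.5% and 16.3%. BZW1 was lower in all 4 lines, from 37.7 ± 3.61 to 23.8 ± 0.493 FPKM in A549 (SD, n = 3), from 39.4 ± 1.25 to 23.3 ± 0.0634 FPKM in PANC1, from 57.0 ± 2.87 to 39.5 ± 1.21 FPKM in ES2 and from 68.8 ± 0.959 to 50.3 ± 0.816 FPKM in MV3. Its log2 fold changes were -0.65 in A549, -0.75 in PANC1, -0.52 in ES2 and -0.45 in MV3, with adjusted p of 0.00462, 0.000758, 0.00127 and 0.00018 in limma. EIF5, which makes eIF2 hydrolyse GTP at the start codon, was lower in all 4 lines (-0.38 in A549, -0.93 in PANC1, -0.59 in ES2 and -0.27 in MV3), as was EIF2S1, the alpha subunit of eIF2 (-0.40 in A549, -0.34 in PANC1, -0.34 in ES2 and -0.35 in MV3). EIF2S3, the gamma subunit of eIF2, was lower in A549 (-0.33), MV3 (-0.36) and PANC1 (-0.45). Its A549 call was lost with the replicate number as a block (adjusted p = 0.0524). EIF2B5, a subunit of the exchange factor of eIF2, and EIF4G2, a relative of the scaffold eIF4G, were lower in ES2, MV3 and PANC1, by values between -0.36 and -0.17. The BZW1 calls held in each alternative tried. Those of EIF5 in A549, of EIF2S1 in A549 and PANC1, of EIF2B5 in ES2 and PANC1 and of EIF4G2 in PANC1 were lost without single libraries, with adjusted p up to 0.148. The ES2 calls of EIF2S1 and EIF4G2 were lost with equal sums (adjusted p = 0.122 and 0.103).

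Because BZW2 fell further than BZW1, its share of the summed FPKM of the pair went from 37.5% ± 1.71 to 19.3% ± 2.64 in A549, from 40.5% ± 1.18 to 30.2% ± 1.21 in PANC1, from 38.9% ± 1.91 to 25.1% ± 1.67 in ES2 and from 23.6% ± 0.450 to 15.2% ± 0.303 in MV3 (SD, n = 3). The sum of both dropped from 60.3 to 29.5 FPKM in A549, from 66.2 to 33.4 in PANC1, from 93.3 to 52.8 in ES2 and from 90.0 to 59.3 in MV3.

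**Figure D4:**
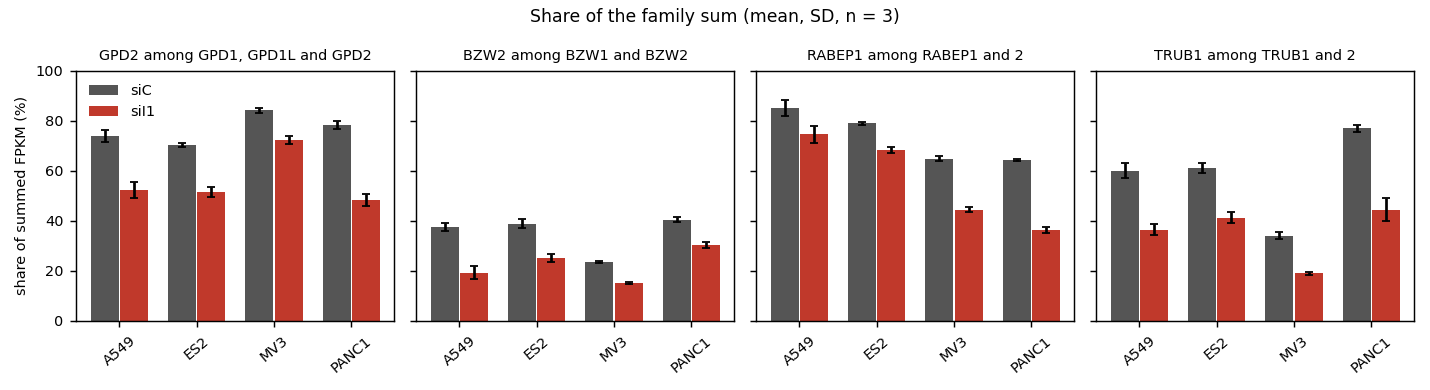
Share of GPD2, BZW2, RABEP1 and TRUB1 in the summed FPKM of their families (%, mean and SD of 3 libraries), siC in grey and siI1 in red. The siI1 share is the lower one in each line and family, as the choice of genes would give, with GPD2 in PANC1 going from 78.2% to 48.3%.

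TRUB1 (ENSG00000165832, chr10:114938195-114977676, plus strand) encodes a pseudouridine synthase that modifies tRNAs and some mRNAs. For A549, FPKM values were 17.4, 20.3 and 17.04 with siC and 8.37, 7.57 and 6.58 with siI1. For ES2, FPKM values were 16.3, 16.04 and 17.2 with siC and 7.34, 7.93 and 7.10 with siI1. For MV3, FPKM values were 6.44, 6.77 and 6.92 with siC and 3.02, 2.81 and 2.77 with siI1. MV3 thus started from the lowest level, with no overlap between groups. For PANC1, FPKM values were 17.1, 15.7 and 15.4 with siC and 6.13, 5.08 and 4.94 with siI1. Relative to siC, the siI1 level was 41.2% in A549, 33.5% in PANC1, 45.1% in ES2 and 42.7% in MV3, and the log2 fold changes were -1.23 ± 0.11 in A549, -1.496 ± 0.09 in PANC1, -1.10 ± 0.06 in ES2 and -1.10 ± 0.06 in MV3, each smaller than the fall of IGF2BP1. In A549 the difference from IGF2BP1 (-1.32 ± 0.05) was smaller than the SE of TRUB1.

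Among the 12 other pseudouridine synthases and relatives listed, the calls were 0 lower and 2 higher of 12 in A549, 1 lower and 2 higher of 12 in PANC1, 3 lower and 0 higher of 12 in ES2, and 3 lower and 0 higher of 12 in MV3. In that order, 0%, 8.33%, 25% and 25% were lower, against 7.83%, 13.4%, 13% and 19.5% of all genes. The shares higher were 16.7%, 16.7%, 0% and 0%, against 5.93%, 11.3%, 10.5% and 16.3%. TRUB2, the nearest relative, which acts in mitochondria, had values of 0.11 in A549, 0.45 in PANC1, 0.01 in ES2 and -0.08 in MV3 and was called in PANC1 (adjusted p = 0.0233, up to 0.0755 without single libraries), where it turned to -0.24 with equal sums. DKC1, the synthase of the box H/ACA particles and of telomerase, was lower in ES2 (-0.37), MV3 (-0.58) and PANC1 (-0.43), with 0.05 in A549. PUS7 was higher in A549 (0.36) and lower in MV3 (-0.17), both lost without single libraries (adjusted p up to 0.0627 and 0.0947). The share of TRUB1 in the TRUB1 and TRUB2 sum went from 60.1% ± 3.04 to 36.4% ± 2.21 in A549, from 77.03% ± 1.35 to 44.4% ± 4.51 in PANC1, from 61.0% ± 2.11 to 41.2% ± 2.22 in ES2 and from 34.1% ± 1.395 to 18.98% ± 0.432 in MV3.

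CBX6 (ENSG00000183741, chr22:38861422-38872249, minus strand) encodes a chromodomain protein of the Polycomb repressive complex PRC1, where it occupies the same place as CBX2, CBX7 and CBX8. In A549, the siC libraries were at 26.2, 24.5 and 24.9 FPKM and the siI1 libraries at 5.11, 7.07 and 5.59 FPKM. In ES2, the siC libraries were at 24.5, 26.0 and 26.3 FPKM and the siI1 libraries at 9.98, 9.93 and 9.69 FPKM. In MV3, the siC libraries were at 22.6, 23.2 and 22.3 FPKM and the siI1 libraries at 8.74, 9.62 and 8.71 FPKM. The siC levels were alike across lines, and the siI1 level of A549 was the lowest. In PANC1, the siC libraries were at 25.7, 24.7 and 25.2 FPKM and the siI1 libraries at 10.1, 9.17 and 10.3 FPKM. The siI1 mean was 23.5% in A549, 39.0% in PANC1, 38.5% in ES2 and 39.7% in MV3 of the siC mean, and the log2 fold changes were -2.01 ± 0.12 in A549, -1.32 ± 0.06 in PANC1, -1.33 ± 0.05 in ES2 and -1.29 ± 0.05 in MV3.

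None of CBX2, CBX7 and CBX8 was lower in more than 1 line. CBX2 was lower in A549 (-0.48, adjusted p = 0.0103), with 0.20 in PANC1, -0.15 in ES2 and -0.18 in MV3. That call was lost with the replicate number as a block (adjusted p = 0.0624). In MV3, CBX7 (0.45) and CBX8 (0.30) were higher, at adjusted p of 0.0498 and 0.0315. The CBX7 call was lost under 10 of 12 alternatives, among them the removal of any MV3 library (adjusted p up to 0.156). The CBX8 call was lost under 6 of 13, and 5 of these were removals of a library (adjusted p up to 0.0941). Over the 20 genes of PRC1 and the CBX family, the calls were 2 lower and 0 higher of 20 in A549, 5 lower and 2 higher of 20 in PANC1, 1 lower and 3 higher of 20 in ES2, and 6 lower and 5 higher of 20 in MV3. In that order, 10%, 25%, 5% and 30% were lower, against 7.83%, 13.4%, 13% and 19.5% of all genes. The shares higher were 0%, 10%, 15% and 25%, against 5.93%, 11.3%, 10.5% and 16.3%. PCGF5, a core subunit of variant PRC1, was lower in A549 (-0.49, adjusted p up to 0.0899 without single libraries), MV3 (-0.57) and PANC1 (-0.96). BMI1, a core subunit of the CBX-containing form, was higher in ES2 (0.39) and lower in MV3 (-0.15, adjusted p up to 0.0784 without single libraries).

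GPD2 (ENSG00000115159, chr2:156435290-156613735, plus strand) encodes the mitochondrial glycerol-3-phosphate dehydrogenase, which passes electrons from cytosolic NADH to the respiratory chain in the glycerophosphate shuttle. The libraries of A549 held 15.0, 17.9 and 14.2 FPKM with siC and 5.47, 4.70 and 5.48 FPKM with siI1. The libraries of ES2 held 18.2, 15.7 and 17.1 FPKM with siC and 7.60, 7.31 and 8.27 FPKM with siI1. The groups did not overlap, and ES2 kept the most. The libraries of MV3 held 17.9, 18.4 and 18.7 FPKM with siC and 6.63, 6.97 and 7.39 FPKM with siI1. The libraries of PANC1 held 9.40, 9.23 and 11.1 FPKM with siC and 3.07, 3.04 and 3.70 FPKM with siI1. Of the siC level, 33.2% in A549, 33.0% in PANC1, 45.4% in ES2 and 38.2% in MV3 remained, and the log2 fold changes were -1.502 ± 0.11 in A549, -1.47 ± 0.11 in PANC1, -1.09 ± 0.08 in ES2 and -1.33 ± 0.05 in MV3.

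GPD1, the cytosolic partner enzyme, was not tested in any line, with a siC mean of at most 0.142 FPKM. GPD1L, its relative, was lower in MV3 alone (-0.32, adjusted p up to 0.054 without single libraries), with -0.17 in A549, 0.01 in ES2 and 0.33 in PANC1. GOT1, the cytosolic aspartate aminotransferase of the malate-aspartate shuttle, which serves the same purpose, was lower in all 4 lines. It went from 16.7 ± 1.44 to 9.02 ± 1.62 FPKM in A549, from 30.9 ± 2.74 to 20.3 ± 1.17 FPKM in PANC1, from 33.8 ± 1.75 to 21.1 ± 1.21 FPKM in ES2 and from 14.9 ± 1.02 to 8.10 ± 0.661 FPKM in MV3. These are log2 fold changes of -0.86 in A549, -0.59 in PANC1, -0.67 in ES2 and -0.84 in MV3, with adjusted p of 0.0106, 0.0043, 0.00107 and 0.000506 in limma, and each call held in every alternative tried. MDH2, the mitochondrial malate dehydrogenase, was lower in ES2 (-0.47) and higher in PANC1 (0.48, or -0.27 with equal sums), and both calls were lost without single libraries (adjusted p up to 0.0938 and 0.129). Over the 9 genes of both shuttles, the calls were 1 lower and 0 higher of 8 in A549, 1 lower and 1 higher of 8 in PANC1, 4 lower and 1 higher of 8 in ES2, and 2 lower and 0 higher of 8 in MV3. In that order, 12.5%, 12.5%, 50% and 25% were lower, against 7.83%, 13.4%, 13% and 19.5% of all genes. The shares higher were 0%, 12.5%, 12.5% and 0%, against 5.93%, 11.3%, 10.5% and 16.3%. GPD2 went from 74.0% ± 2.44 to 52.4% ± 3.23 in A549, from 78.2% ± 1.51 to 48.3% ± 2.52 in PANC1, from 70.2% ± 0.878 to 51.4% ± 1.91 in ES2 and from 84.1% ± 1.02 to 72.3% ± 1.49 in MV3 of the summed FPKM of GPD1, GPD1L and GPD2.

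SLC37A4 (ENSG00000137700, chr11:119023751-119030906, minus strand) encodes the transporter that brings glucose 6-phosphate into the endoplasmic reticulum, and its loss causes a glycogen storage disease with neutropenia. It had the lowest levels of the 10 genes. The level in A549 was 3.05, 3.01 and 3.98 FPKM in the siC libraries and 0.754, 0.569 and 0.776 FPKM in the siI1 libraries. The level in ES2 was 6.64, 7.91 and 7.89 FPKM in the siC libraries and 2.49, 2.02 and 1.84 FPKM in the siI1 libraries. Reads were few in A549, with no fewer than 15 in any library. The level in MV3 was 2.23, 2.38 and 2.47 FPKM in the siC libraries and 1.25, 1.11 and 1.38 FPKM in the siI1 libraries. The level in PANC1 was 5.23, 5.38 and 5.41 FPKM in the siC libraries and 1.84, 2.29 and 1.58 FPKM in the siI1 libraries. The RNA left was 20.9% in A549, 35.6% in PANC1, 28.3% in ES2 and 52.8% in MV3. Its log2 fold changes, -1.68 ± 0.19 in A549, -1.29 ± 0.12 in PANC1, -1.61 ± 0.12 in ES2 and -0.71 ± 0.09 in MV3, spanned 0.96, the widest span of the 10 genes, and in MV3 its fall ranked 226 among protein-coding genes.

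The relatives of SLC37A4 did not move as one. SLC37A3 had values of -0.23 in A549, -0.28 in PANC1, -0.34 in ES2 and -0.19 in MV3 without a call, although limma with voom weights on the recovered reads called it lower in ES2, MV3 and PANC1 (adjusted p = 0.00613, 0.00925 and 0.0194). SLC37A2 was lower in ES2 (-0.64) and higher in MV3 (0.52, from 22.2 ± 0.906 to 32.0 ± 1.19 FPKM), and SLC37A1 was tested in A549 (-0.21) and PANC1 (-0.10) without a call. G6PC3, the glucose 6-phosphatase of most tissues, was higher in MV3 (0.58) and in PANC1 (0.39, or -0.32 with equal sums). H6PD, the dehydrogenase that uses glucose 6-phosphate inside the endoplasmic reticulum, was higher in MV3, from 2.09 ± 0.197 to 4.78 ± 0.101 FPKM (1.03, adjusted p = 0.000256), and lower in PANC1 (-0.41, adjusted p up to 0.066 without single libraries). Over the 13 genes listed, the calls were 0 lower and 2 higher of 9 in A549, 1 lower and 1 higher of 9 in PANC1, 2 lower and 1 higher of 9 in ES2, and 2 lower and 3 higher of 9 in MV3. In that order, 0%, 11.1%, 22.2% and 22.2% were lower, against 7.83%, 13.4%, 13% and 19.5% of all genes. The shares higher were 22.2%, 11.1%, 11.1% and 33.3%, against 5.93%, 11.3%, 10.5% and 16.3%.

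SLC39A14 (ENSG00000104635, chr8:22367278-22434129, plus strand) encodes ZIP14, an importer of zinc, manganese and iron at the cell surface. A549 libraries with siC gave 22.9, 19.1 and 21.5 FPKM, and those with siI1 gave 8.28, 6.37 and 6.59 FPKM. ES2 libraries with siC gave 18.5, 18.2 and 17.5 FPKM, and those with siI1 gave 9.55, 7.93 and 9.50 FPKM. MV3 libraries with siC gave 17.4, 17.6 and 17.3 FPKM, and those with siI1 gave 7.41, 7.30 and 7.75 FPKM. In these lines the lowest siC library was above the highest siI1 library. PANC1 libraries with siC gave 13.7, 15.4 and 14.7 FPKM, and those with siI1 gave 4.95, 3.78 and 4.76 FPKM. What remained was 33.4% in A549, 30.8% in PANC1, 49.8% in ES2 and 43.0% in MV3, and the log2 fold changes were -1.52 ± 0.12 in A549, -1.60 ± 0.11 in PANC1, -0.97 ± 0.08 in ES2 and -1.17 ± 0.04 in MV3.

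The other ZIP transporters had few calls in each line, and none was lower in A549. Of 13 listed, the calls were 0 lower and 2 higher of 10 in A549, 1 lower and 2 higher of 9 in PANC1, 1 lower and 2 higher of 10 in ES2, and 1 lower and 1 higher of 10 in MV3. Of all genes tested, 7.83% were lower and 5.93% higher in A549, and 13.4% and 11.3% in PANC1. These backgrounds were 13% and 10.5% in ES2 and 19.5% and 16.3% in MV3, and the list was not tested against them. SLC39A8 (ZIP8), the closest relative of ZIP14, was lower in MV3, from 6.20 ± 0.203 to 2.87 ± 0.201 FPKM (-0.99, adjusted p = 0.000195), and in ES2 (-0.25, adjusted p up to 0.124 without single libraries), with 0.05 in A549 and too low a level for a test in PANC1. SLC39A1 (ZIP1), a zinc importer of the cell surface, was higher in ES2 (0.29, adjusted p up to 0.0698 without single libraries), MV3 (0.36) and PANC1 (0.48, or -0.26 with equal sums). SLC39A6 (ZIP6) was higher in A549 (0.40) and ES2 (0.52) and lower in PANC1 (-0.32, adjusted p up to 0.139 without single libraries). Its A549 call was lost with the replicate number as a block (adjusted p = 0.0505). The summed FPKM of the family with SLC39A14 was 170 ± 3.72 and 176 ± 1.47 in siC and siI1 of A549, 127 ± 2.99 and 132 ± 5.42 in PANC1, 130.1 ± 3.97 and 132 ± 3.49 in ES2 and 215 ± 7.77 and 226 ± 6.88 in MV3. The share of SLC39A14 in it went from 12.5% ± 0.855 to 4.03% ± 0.601 in A549, from 11.5% ± 0.514 to 3.41% ± 0.555 in PANC1, from 13.9% ± 0.739 to 6.78% ± 0.524 in ES2 and from 8.11% ± 0.256 to 3.32% ± 0.158 in MV3.

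RABEP1 (ENSG00000029725, chr17:5282265-5386340, plus strand) encodes Rabaptin-5, an effector of the small GTPase RAB5 in the fusion of early endosomes, which acts in a complex with the exchange factor RABGEF1. For A549, FPKM values were 24.1, 23.4 and 21.8 with siC and 8.14, 8.59 and 7.99 with siI1. For ES2, FPKM values were 22.7, 22.9 and 24.1 with siC and 11.9, 11.6 and 12.3 with siI1. ES2 kept the most of the 4 lines. For MV3, FPKM values were 15.9, 14.8 and 15.8 with siC and 6.43, 6.10 and 6.70 with siI1. For PANC1, FPKM values were 9.23, 8.10 and 8.82 with siC and 2.98, 2.95 and 2.60 with siI1. Relative to siC, the siI1 level was 35.6% in A549, 32.6% in PANC1, 51.3% in ES2 and 41.4% in MV3, and the log2 fold changes were -1.43 ± 0.07 in A549, -1.46 ± 0.09 in PANC1, -0.93 ± 0.05 in ES2 and -1.21 ± 0.05 in MV3.

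Neither RABEP2, its relative, nor RABGEF1 was called in any line, with values of -0.45 in A549, 0.03 in PANC1, -0.16 in ES2 and -0.07 in MV3 for RABEP2 and of 0.42 in A549, -0.27 in PANC1, 0.08 in ES2 and 0.20 in MV3 for RABGEF1. RABGEF1 was low, with means of 0.659 to 1.05 FPKM. Of 20 genes of early endosomes, the calls were 4 lower and 0 higher of 20 in A549, 3 lower and 3 higher of 20 in PANC1, 4 lower and 1 higher of 20 in ES2, and 4 lower and 2 higher of 19 in MV3. In that order, 20%, 15%, 20% and 21.1% were lower, against 7.83%, 13.4%, 13% and 19.5% of all genes. The shares higher were 0%, 15%, 5% and 10.5%, against 5.93%, 11.3%, 10.5% and 16.3%. RIN1, another exchange factor of RAB5, was lower in ES2 (-0.93), MV3 (-0.32) and PANC1 (-1.08, from 2.38 ± 0.102 to 0.863 ± 0.148 FPKM), and these calls held in every alternative tried. GGA2, a clathrin adaptor that binds Rabaptin-5, was lower in A549 (-0.60), ES2 (-0.33, adjusted p = 0.0538 without siI1 replicate 3) and MV3 (-0.23) and higher in PANC1 (0.46, or -0.27 with equal sums). RAB5B was lower in A549 (-0.54) and higher in PANC1 (0.25, or -0.48 with equal sums). RAB5C was lower in ES2 (-0.29) and higher in PANC1 (0.19, or -0.55 with equal sums). The RAB5C calls and the PANC1 call of RAB5B were lost without single libraries (adjusted p up to 0.107). RABEP1 went from 85.1% ± 3.02 to 74.5% ± 3.33 in A549, from 64.2% ± 0.355 to 36.4% ± 1.20 in PANC1, from 78.9% ± 0.472 to 68.5% ± 1.24 in ES2 and from 64.9% ± 1.05 to 44.5% ± 1.06 in MV3 of the RABEP1 and RABEP2 sum.

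BRI3BP (ENSG00000184992, chr12:124993645-125031231, plus strand) encodes a membrane protein named for its binding to BRI3. In A549, the siC libraries were at 17.5, 17.4 and 15.0 FPKM and the siI1 libraries at 5.28, 5.86 and 5.01 FPKM. In ES2, the siC libraries were at 12.1, 11.8 and 11.4 FPKM and the siI1 libraries at 5.05, 4.17 and 4.65 FPKM. In MV3, the siC libraries were at 10.1, 10.5 and 10.3 FPKM and the siI1 libraries at 4.26, 3.84 and 4.24 FPKM. The groups were apart in each of these lines. In PANC1, the siC libraries were at 17.8, 20.3 and 18.8 FPKM and the siI1 libraries at 6.47, 7.25 and 6.23 FPKM. The siI1 mean was 32.4% in A549, 35.1% in PANC1, 39.3% in ES2 and 39.9% in MV3 of the siC mean, and its log2 fold changes, -1.54 ± 0.10 in A549, -1.44 ± 0.08 in PANC1, -1.26 ± 0.08 in ES2 and -1.23 ± 0.05 in MV3, had the narrowest span of the 10 genes, 0.31. BRI3 was lower in MV3 (-0.45, adjusted p = 0.00162), with 0.12 in A549, -0.20 in ES2 and 0.13 in PANC1. TMEM109, a relative of BRI3BP, was higher in A549 (0.35, adjusted p up to 0.0737 without single libraries) and PANC1 (0.52, or -0.22 with equal sums).

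The falls of the 10 genes can be set beside those of genes just outside the choice. By the smallest of the 4 falls, SLC37A4 ranked 26, and 16 other protein-coding genes fell at least as far in their least affected line. These were IGF2BP1 itself, LAMTOR5, HIST1H1D, NEMP1, CDCA4, DTYMK, TMEM81, SLC35D1, DNAJC11, STK10, ZWINT, ZC3HAV1L, RAD54L, SPC24, VPS4A and HIST1H2AK, with least falls of -1.32 to -0.72. The fall of SLC37A4 in MV3, a low gene there, ranged from -0.93 to -0.58 over the alternatives. Its rank and the genes listed therefore rest on the main setting and were not worked out under the others. Of the 10 genes, the least falls lay between -2.47 for CCDC6 and -0.71 for SLC37A4. CANT1 (-0.70), GUSB (-0.68), TERF2IP (-0.68), SRF (-0.68) and SRPK1 (-0.67) came next. The genes whose values over the 4 lines were nearest to the median of the 10 were LAMTOR5 (root mean square distance 0.26), NEMP1 (0.29), IGF2BP1 (0.30), DTYMK (0.31) and CDCA4 (0.31). LAMTOR5, a subunit of the Ragulator complex on lysosomes, changed by -1.15 in A549, -1.23 in PANC1, -1.37 in ES2 and -1.13 in MV3.

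Promoter windows of RefSeq (GRCh38.p14), from 250 bases before to 50 bases after a start, were on hand for 8 of the 10 genes, in 13 windows. Windows on the chromosome of SLC39A14 were left out, and RABEP1 was not analysed here. They were rich in G and C, with a median of 65.0% against 58.7% over 35116 windows. GGGCGG, the GC box, was present on either strand in 10 of the 13 windows, against 45.0% of all, CCAAT in 3 windows, against 34.6%, and TATAAA in 1, against 11.5%. Some genes gave more than 1 window, and counted by gene, 7 of the 8 held GGGCGG. The 35116 windows were not limited to expressed genes, so the comparison cannot show a trait particular to the 10 genes. The E2F words TTTCCCGC and TTTGGCGC, found in 1.63% and 0.652% of all windows, were each in 1 gene, CCDC6 and SLC37A4. They are shown because E2F words were the rarest ones searched, as 30 bases with the word in capitals on the strand of the gene, 5′ to 3′.
CCDC6, chr10:59906773-59906802, minus strand: cagtccttggcTTTCCCGCacccgcagtgc
SLC37A4, chr11:119029586-119029615, minus strand: accccctacagTTTGGCGCtcagtaatctc
No binding at these words was measured here, and the windows of the other genes searched held neither. SLC39A14 and RABEP1 were not searched.

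In the annotation used for these loci, 5 of the 10 genes share exonic bases with a gene on the opposite strand, and without a stated strand setting their reads cannot be told apart there. The overlap was 3786 nt for RABEP1 and NUP88, 1977 nt for BRI3BP and THRIL, 868 nt for SLC37A4 and TRAPPC4, 232 nt for HDLBP and SEPTIN2 (SEPT2 in the deposited tables) and 139 nt for BZW2 and an unnamed gene. These neighbours were chosen after the values were seen and are given without a test. SEPT2, a septin, was above its siC range in the siI1 libraries of each line on the deposited scale, with siC at 54.8 to 64.2 and siI1 at 74.0 to 76.9 FPKM in A549, 60.5 to 63.1 against 75.9 to 79.0 in PANC1, 49.9 to 56.6 against 78.3 to 86.1 in ES2 and 63.6 to 64.7 against 75.9 to 79.8 in MV3. It thus went the opposite way to HDLBP. NUP88, a nucleoporin, was left at 92.7% of its siC mean in A549, 73.8% in PANC1, 84.1% in ES2 and 78.7% in MV3. TRAPPC4, a subunit of the TRAPP tethering complexes, was at 85.6% in A549 and 76.1% in ES2, with siI1 libraries below siC libraries, and at 106% in MV3 and 109.7% in PANC1, where they overlapped. THRIL, a long non-coding RNA, had at most 1 read in any library.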

How the data were processed

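The members and the partner lists were chosen with earlier results of these data known. RNA was extracted with TRIzol from 3 biological replicates per group, rRNA was depleted, and libraries were made with a directional kit. Per the labels, the authors used Cutadapt (1.14) for adapters, HISAT2 (2.1.0) for alignment to hg38, featureCounts (1.5.3) for reads per gene and edgeR (3.30.3) for tests in each line. The strand setting of the counting is not given in the sources used here. The deposited values are FPKM, a unit the tables do not name: multiplied by gene length, 100% of values above 0 were whole multiples of 1 step per library (tolerance 0.01), which gave the reads. The tables also hold the authors' log2 fold changes, p-values and FDR, which were not used. The chi-square per gene between replicates was 1.54 to 15.1, so all libraries were counted separately.

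In each line, genes whose 6 libraries averaged 0.5 FPKM or more entered limma (3.58.1, R 4.3.3; lmFit, eBayes with trend) on log2(FPKM + 0.5), two-sided, without covariates, with Benjamini-Hochberg adjustment over all genes of the line and a threshold of 0.05. This scale understates the change of low genes. For differences between lines, 1 fit over the 8 groups and an F test over lines was used for genes passing in all 4 lines. The script was tested on simulated data. For the members, only fold changes and SE were taken from the fit. Genes named are the members, IGF2BP1, their nearest relatives, partners called in 1 direction in at least 3 lines or in opposite directions, the genes with falls as large in every line, and the 5 nearest by profile. Some genes and sequences that these rules pick are not reported here, and such genes stay in the counts of their lists. Alternatives were other pseudocounts (0.1 and 1), filters (none, or at least 1 FPKM), equal library sums, voom on recovered reads, the replicate number as a block, and leaving out each library. Loci and 3′UTRs are from GENCODE 44 (hg38), newer than the authors' annotation. Sequences printed were the same in the hg38 genome. Figures were drawn with Python 3.11.15 and matplotlib 3.10.9.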

Additional observations from a re-analysis of the deposited data

Results flagged for a closer look

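The response of 26 of the 37 named partners tested differed between the 4 lines (F test of limma, adjusted over 12816 genes, 45% of which passed). Many partners were named for calls in opposite directions or in at least 3 lines, so the choice partly fixes this share. Over all 127 partners tested in all lines, named or not, 73 (57.5%) passed. The partner lists themselves were chosen with earlier results of these data known. The 10 genes themselves were not tested in this way, since they were chosen for their changes. The smallest adjusted p belonged to H6PD (3.08e-08), higher in MV3 and lower in PANC1, and to GGA2 (3.8e-07), lower in 3 lines and higher in PANC1. Other partners with calls in opposite directions were SLC39A6 (7.9e-06), RAB5B (0.000125), QKI (0.000319), PUS7 (0.000457), RAB5C (0.000767), MDH2 (0.000894), IGF2BP3 (0.00256) and BMI1 (0.0202).

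Partners lower in at least 3 lines but to unequal degree were PCGF5 (7.61e-06), EIF5 (1.17e-05), DKC1 (3.01e-05), PPP4R3B (0.000761), EIF4G2 (0.000786), RIN1 (0.000893), KHSRP (0.00255), H2AFX (0.00322) and BZW1 (0.0112). EIF5 ranged from -0.27 in MV3 to -0.93 in PANC1, and PCGF5 from 0.11 in ES2 to -0.96 in PANC1.

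The remaining ones were TMEM109 (0.000226), GPD1L (0.000297), TRUB2 (0.00175), BRI3 (0.00248), G6PC3 (0.00437), CBX2 (0.0276) and SLC39A1 (0.0465). Of the 26, 22 passed under every alternative. CBX2 and SLC39A1 were lost without single libraries (adjusted p up to 0.21 and 0.111 over all alternatives), and GPD1L and TRUB2 with equal sums (0.12 and 0.0906). Harvest at 96 h in PANC1 cannot be told apart from the line.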

How the results depend on the processing

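All 10 genes had siI1 libraries below all siC libraries in each line under each alternative, and no member changed direction. Their median log2 fold change moved by more than the replicate SD with a pseudocount of 0.1 (A549 -1.79, MV3 -1.28, PANC1 -1.57), with a pseudocount of 1 (A549 -1.46, MV3 -1.15, PANC1 -1.37), with voom on recovered reads (A549 -1.81, ES2 -1.36, MV3 -1.30, PANC1 -1.58) and with equal library sums (ES2 -1.23, PANC1 -2.16). Without single libraries it ranged from -1.67 to -1.59 in A549, -1.33 to -1.27 in ES2, -1.24 to -1.18 in MV3 and -1.51 to -1.43 in PANC1. Counts of partners depended more on the processing. With voom, A549 had 20 lower and 17 higher and ES2 17 higher. Without a filter, MV3 had 11 higher and PANC1 17 lower. With equal sums, MV3 had 11 higher, PANC1 98 lower and 0 higher, and 111 partners differed between lines. That PANC1 count of 0 compares with 15 in the deposited scaling and 17 by voom.

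Leaving out single libraries, which tests fewer samples, gave 8 to 11 lower and 2 to 7 higher partners in A549, 19 to 24 and 5 to 8 in ES2, 35 to 40 and 10 to 12 in MV3 and 14 to 22 and 7 to 17 in PANC1, and 65 to 74 partners differing between lines. The fewest came without A549 siC replicate 1 (8 lower), A549 siI1 replicates 1 or 2 (2 higher), ES2 siI1 replicates 2 or 3 (19 lower) and 3 (5 higher), MV3 siC or siI1 replicate 2 (10 higher), PANC1 siC or siI1 replicate 1 (14 lower) and PANC1 siI1 replicate 3 (7 higher). Of 86 calls of named partners, 43 held under every alternative and 32 were lost without at least 1 library. Values that had a call under either scaling and turned negative with equal sums, all in PANC1, were BMI1 (-0.71), BRI3 (-0.59), G6PC3 (-0.32), GGA2 (-0.27), IGF2BP2 (-0.51), MDH2 (-0.27), PPP4C (-0.35), PUS7 (-0.65), RAB5B (-0.48), RAB5C (-0.55), RABEP2 (-0.66), SLC39A1 (-0.26), TMEM109 (-0.22) and TRUB2 (-0.24). Values without a call under both scalings were left out here. The scaling can turn these as well. The cause of the turns was not tested.

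Replicate numbers are shared between groups, but the deviations of same-numbered libraries correlated at -0.0562 to 0.0711, so they share only a number. With the replicate block, A549 had 7 lower and 1 higher partner and PANC1 15 lower, and 57 partners differed between lines. Equal sums shifted the median of all genes to -0.68 in PANC1. Low depth limits A549 most, where SLC37A4 rested on as few as 15 reads. The voom fit was not run for differences between lines.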
